A study of Mus musculus with 18 samples.

Results

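Id1, Id2 and Id3 encode inhibitors of MyoD, and the open chromatin around the 3 genes was compared in mouse skeletal muscle cells. The members are the ATAC-seq peaks whose summit lies in 1 of 3 windows of 100 kb on the mm9 build. The windows are chr2:152510000-152610000 for Id1, chr12:25730000-25830000 for Id2 and chr4:135650000-135750000 for Id3. They hold 188 of the 400115 peaks in 4 deposited lists, 72 at Id1, 37 at Id2 and 79 at Id3. ATAC-seq uses a transposase that inserts sequencing adapters into accessible DNA. The 4 lists come from 12 samples in groups of 3, which are MyoD-null myocytes, wild-type myocytes, MyoD-null myoblasts and wild-type myoblasts from mice. The tissue is skeletal muscle for all 12. Myoblasts are the proliferating precursors of muscle fibres. Myocytes had been under myogenic differentiation for 24 h. The labels give neither the MyoD-null allele nor the age of the mice. RNA-seq of the C2C12 line with and without CTCF knockdown (6 samples) was not analysed here.

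MyoD is a basic helix-loop-helix factor that binds DNA as a dimer with an E protein. Id proteins carry the helix-loop-helix but no basic region, so they pair with E proteins without binding DNA and keep them from MyoD. They are known for high levels in proliferating cells, for induction by bone morphogenetic proteins and for a fall when myoblasts differentiate. Each gene has neighbours that may reach into its window. In the RefSeq order of protein-coding genes along the chromosome, Mcts2 and Cox4i2 flank Id1, Kidins220 and Rnf144a flank Id2, and Rpl11 and E2f2 flank Id3. The annotation used here is on another build (GRCm38.p6), so no peak was assigned to a promoter, exon or intron. For the same reason the cell type and genotype labels were not checked against peaks at marker genes or at Myod1.

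The promoter sequences of 2 of the 3 genes, Id2 and Id3, matched by symbol, and they are shown because the most covered summit of each window lay near its centre. Each is the 250 bases before the gene's start in RefSeq on GRCm38.p6, at chr12:25096093-25096342 on the minus strand for Id2 and chr4:136143572-136143821 on the plus strand for Id3. Capitals mark matches, on either strand, to the motif CAGCTG, the motif GGCGCC, the motif TGACG and the motif CCAAT.
Id2: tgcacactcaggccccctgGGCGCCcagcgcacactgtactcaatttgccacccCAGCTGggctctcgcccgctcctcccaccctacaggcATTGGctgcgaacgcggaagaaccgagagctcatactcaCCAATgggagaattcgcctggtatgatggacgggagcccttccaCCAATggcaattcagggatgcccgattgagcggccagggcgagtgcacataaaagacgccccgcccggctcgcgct
Id3: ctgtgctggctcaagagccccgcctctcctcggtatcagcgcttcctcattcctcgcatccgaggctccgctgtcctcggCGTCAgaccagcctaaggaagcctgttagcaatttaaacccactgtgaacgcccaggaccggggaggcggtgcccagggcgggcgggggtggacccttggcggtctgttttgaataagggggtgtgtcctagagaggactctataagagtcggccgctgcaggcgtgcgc

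CAGCTG is the E-box form that MyoD prefers and is 1 case of the general E-box CANNTG. The Id2 promoter held 1 CAGCTG, and it was the single E-box there. The Id3 promoter held no E-box in these 250 bases. CAGCTG occurs in 13.0% and CANNTG in 66.2% of 32851 RefSeq promoters of the same length. The Id2 promoter also held 1 GGCGCC, a sequence known from elements that respond to bone morphogenetic proteins, which 9.59% of promoters hold. It had 3 CCAAT matches, a number reached by 2.79% of promoters. The Id3 promoter held 1 TGACG, the core of the cAMP response element, found in 17.8% of promoters. TATAAA was found in neither promoter and in 12.4% of all promoters. Both promoters were 62.8% G and C with 18 CpG each, against medians of 52.4% and 6 over all promoters.

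The genotype of the 2 myocyte lists was recorded in opposite ways. Peak names in the list deposited as MyoD-null myocytes read WT, and those in the list deposited as wild-type myocytes read MKO, the title code of the MyoD-null samples. Each list is named here by its deposited genotype. Each list was called on merged samples, so no value has an error between replicates and no test was possible. The genome-wide background, in reads per base, was 6.34 in myocytes deposited as MyoD-null, 5.29 in those deposited as wild type, 8.54 in MyoD-null and 8.18 in wild-type myoblasts. The least covered summits had 17, 15, 21 and 20 reads in that order of lists. The 2 myocyte lists also carry a prefix in their peak names that the myoblast lists lack, so stage and processing cannot be told apart. A smaller share of cells with an open site and a less open site in every cell cannot be told apart either.

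The Id1 and Id3 windows were among the most peak-dense of the genome, and the Id2 window was not. Id1 held 15 peaks in myocytes deposited as MyoD-null, 19 in those deposited as wild type, 19 in MyoD-null myoblasts and 19 in wild-type myoblasts. Of 18967 windows of 100 kb with a peak in any list, 0.459% to 3.02% held as many in the same list. Id3 held 19, 21, 19 and 20 peaks in the same order of lists, which 0.211% to 0.701% of windows reached. Id2 held 9, 9, 9 and 10 peaks, which 16.4% to 26.8% of windows reached. The median window held 3 to 5 peaks. The windows thus differed little in peak number across the lists, in which all 3 together held 43, 49, 47 and 49 peaks. The lists differ in length, with 88233, 112030, 101755 and 98097 peaks in the same order. Relative to list length, myocytes deposited as wild type, the longest list, had the fewest Id peaks and wild-type myoblasts the most.

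**Figure D1:**
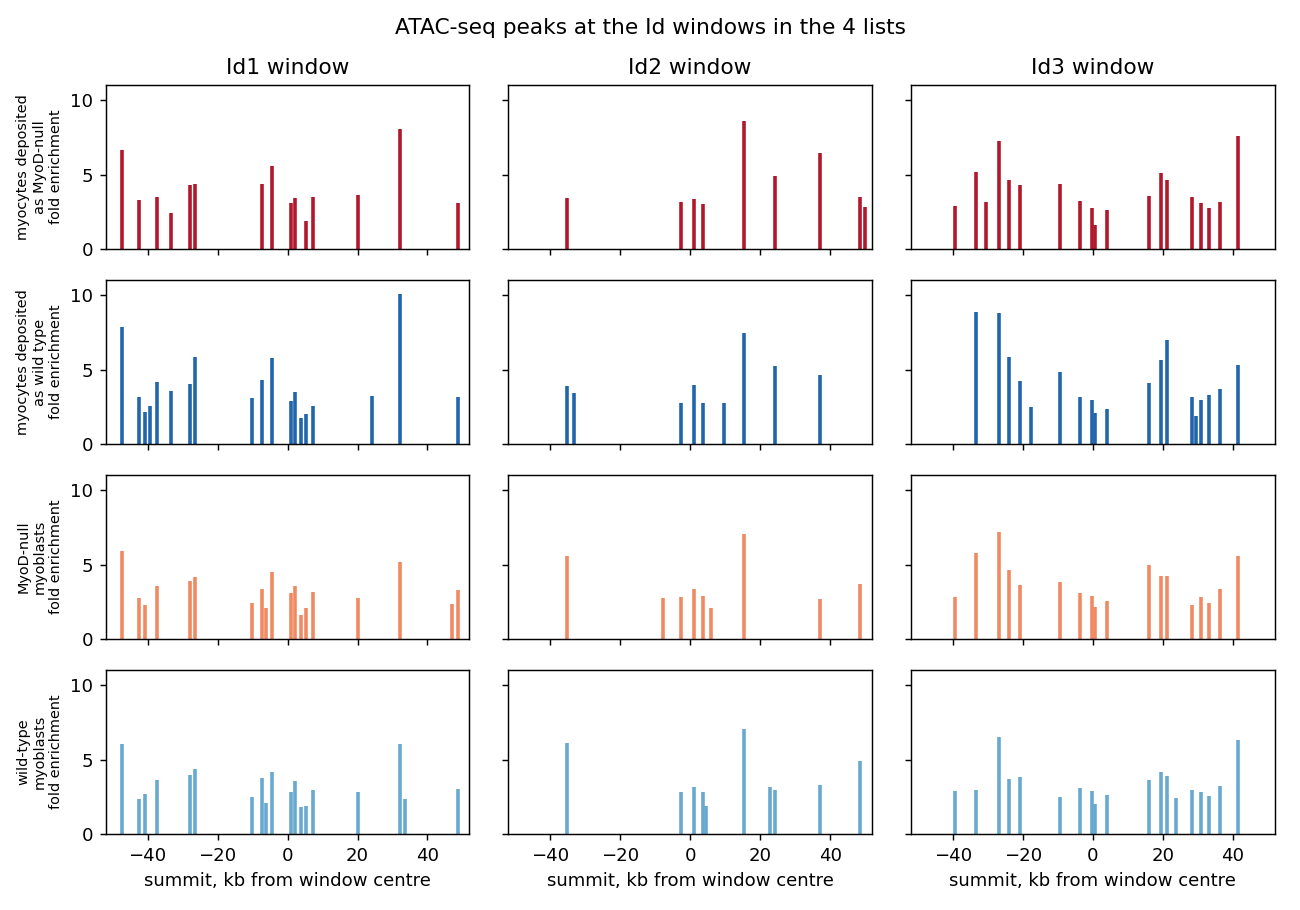
Each line is a region of overlapping peaks in 1 of the 3 windows (columns) and 1 of the 4 lists (rows), placed by its median summit over the lists in kb from the window centre, with the deposited fold enrichment as its height. The highest line, 10.1, stands in the Id1 window in myocytes deposited as wild type.

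Peaks of the 4 lists that overlapped by at least 1 bp were merged into 60 regions, 23 at Id1, 15 at Id2 and 22 at Id3. Id3 regions were listed in all 4 lists in 17 of 22 cases (77.3%), Id1 regions in 13 of 23 (56.5%) and Id2 regions in 6 of 15 (40%). Over the genome it was 65178 of 141979 regions (45.9%). In the 36 Id regions of all 4 lists, the summits of the lists lay 89.5 bp apart at the median, from the lowest to the highest. Regions in fewer than 4 lists were weak. Their highest fold enrichment, the reads at the summit over the local background as the authors' peak caller gives it, had a median of 2.77, against 4.24 for the regions in all 4 lists. The genome-wide medians were 3.56 and 6.14 in the same order.

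The most covered summit of each window lay close to its centre in all 4 lists, and its fold enrichment was low. At Id1 this was chr2:152561627-152562720, 2.01 kb from the centre, with 160 reads in myocytes deposited as MyoD-null, 159 in those deposited as wild type, 161 in MyoD-null myoblasts and 158 in wild-type myoblasts. The folds there were 3.45, 3.48, 3.54 and 3.57, so neither raw reads nor folds set any list apart. Divided by the genome-wide background, the reads were 25.2, 30.1, 18.8 and 19.3, higher in both myocyte lists. Myocyte over myoblast ratios of these values were 1.34 for the MyoD-null lists and 1.56 for the wild-type lists. The median ratios over the genome were close, at 1.28 and 1.61. At Id2 it was chr12:25780590-25781433, 1.08 kb from the centre, with 168, 181, 179 and 162 reads and folds of 3.35, 3.97, 3.34 and 3.17. At Id3 it was chr4:135699170-135700218, 0.312 kb from the centre, with 166, 179, 162 and 160 reads and folds of 2.78, 2.98, 2.89 and 2.92. Divided by the genome-wide background, these summits stood among the top 0.213% to 2.28% of their lists. By fold they ranked between the 7.13th and the 44.2nd percentile.

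The local background at the centres was high, and it is the divisor of the fold. At the Id3 centre it was 59.1 reads in myocytes deposited as MyoD-null, 59.5 in those deposited as wild type, 55.5 in MyoD-null and 54.1 in wild-type myoblasts, which is 6.49 to 11.3 times the genome-wide background. Over the 3 windows, peaks within 10 kb of a centre had median local backgrounds of 43.4 to 44.5 reads and median folds of 2.81 to 3.22. Peaks farther out had 14.9 to 18.3 reads and median folds of 3.27 to 4.03. The 10 kb limit was chosen after the values were seen. Ratios of folds at the centres are thus relative to a neighbourhood well covered in every list.

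**Figure D2:**
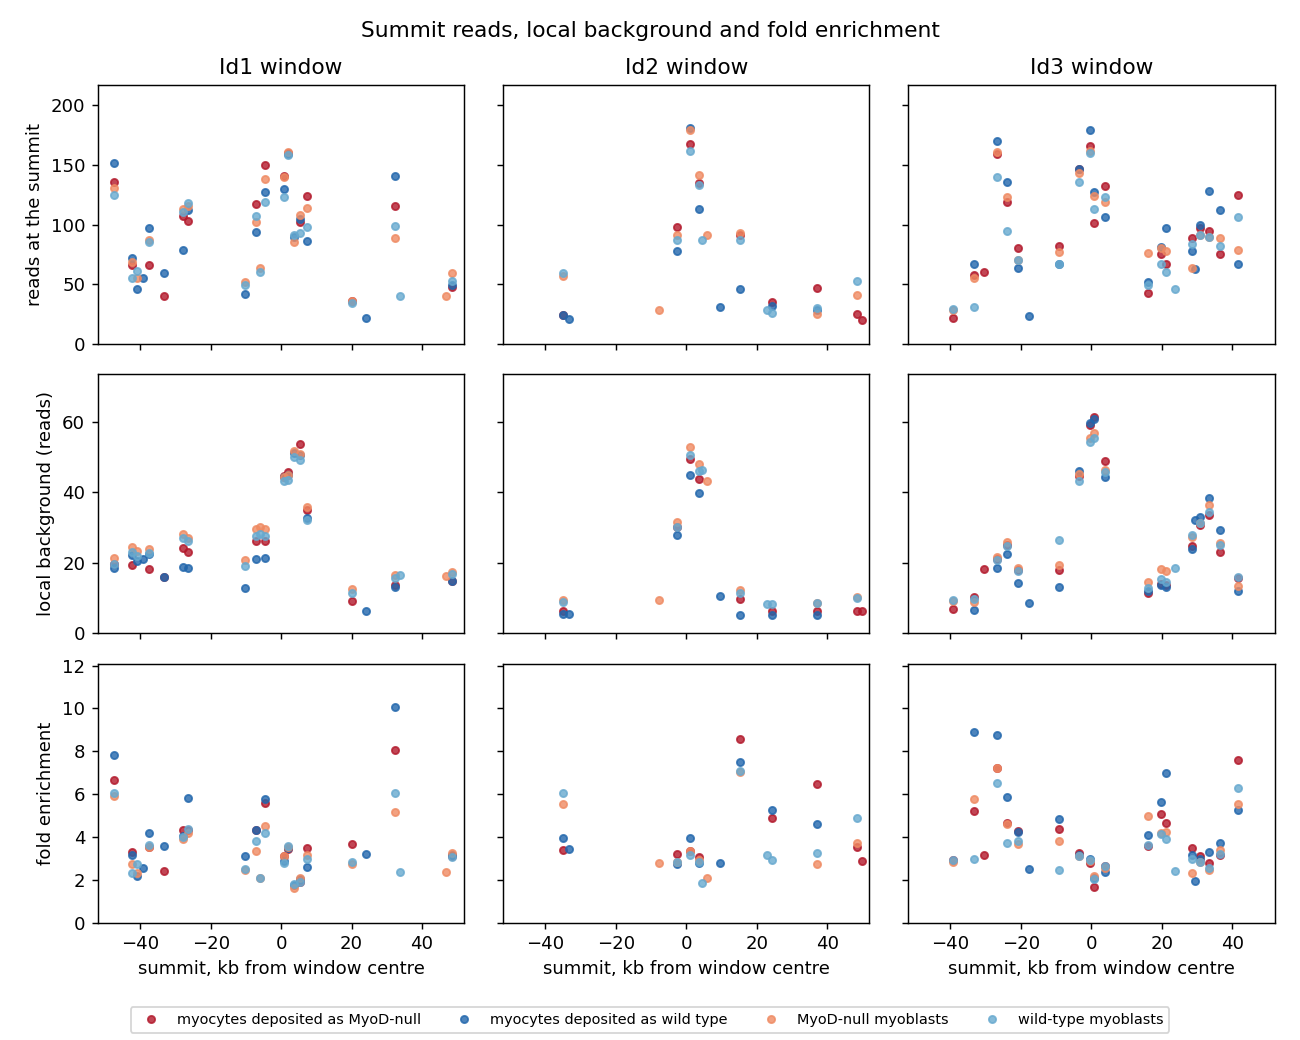
Points are regions in the Id1, Id2 and Id3 windows (columns) by distance of the median summit from the window centre in kb, coloured by list. Rows give reads at the summit, local background in reads and fold enrichment, and the most covered summit near each centre, with up to 181 reads, has a fold of at most 3.97.

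Folds were compared between lists at regions in both lists, and set against the median ratio over the genome, since myocyte folds were higher overall. For myocytes over myoblasts the median ratio was 1.27 with the lists deposited as wild type and 1.12 with those deposited as MyoD-null. For MyoD-null over wild type it was 1.01 in myoblasts and 0.895 in the deposited myocyte lists. Summit reads over the genome-wide background served as a second measure, with a 95% interval of the ratio that covers counting error only. The median ratios of this measure were 1.61, 1.28, 1.02 and 0.791 in the same order. A region is called changed in fold here when its ratio was past 1.5 times the median ratio in either direction.

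At Id1 no region was past that limit in 3 of the comparisons, and 1 was lower in the fourth. That was chr2:152519032-152519582, 40.9 kb from the centre, with a fold of 2.18 in myocytes deposited as wild type, against 2.72 in wild-type myoblasts. It was not listed in myocytes deposited as MyoD-null and had a fold of 2.31 in MyoD-null myoblasts. Its summit reads over background gave a ratio of 1.17 (0.796 to 1.71), an interval that covers both 1 and the genome-wide median of 1.61.

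The strongest Id1 region lay 32.3 kb from the centre, at chr2:152591709-152592630. Its fold was 8.05 in myocytes deposited as MyoD-null, 10.1 in those deposited as wild type, 5.18 in MyoD-null and 6.03 in wild-type myoblasts. Both myocyte lists thus stood above both myoblast lists. Summit reads over background gave myocyte over myoblast ratios of 1.76 (1.33 to 2.32) for the MyoD-null lists and 2.20 (1.71 to 2.85) for the wild-type lists, both above the genome-wide medians. By fold, 7.04% and 15.6% of regions had ratios as high in those comparisons. The second, chr2:152512322-152513026 at 47.3 kb from the centre, had folds of 6.65, 7.84, 5.94 and 6.07 in the same order of lists. The third, chr2:152533015-152533912 at 26.4 kb, had 4.34, 5.84, 4.18 and 4.39. These 3 regions were ranked by their highest fold in any list. The list of wild-type myocytes, as deposited, had the highest fold in each of them. Over the genome it did so in 64.1% of the regions in all 4 lists, and at the Id windows in 15 of 36, of which 5 of 13 were at Id1. The region nearest the centre, chr2:152560532-152561303, had 3.12, 2.90, 3.11 and 2.80, with overlapping values in myocytes and myoblasts.

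At Id2 the regions far from the centre differed most between myocytes and myoblasts. The region at chr12:25744564-25745171, 35.1 kb from the centre, had 24 summit reads in myocytes deposited as MyoD-null, 24 in those deposited as wild type, 57 in MyoD-null and 59 in wild-type myoblasts. Its folds were 3.41, 3.93, 5.56 and 6.07, so both myocyte lists were lower under either reading of the genotype. The fold ratios of 0.613 for the MyoD-null lists and 0.647 for the wild-type lists were both past the limit. Ratios that low were found in 0.377% and 0.435% of regions. Summit reads over background gave 0.568 (0.352 to 0.914) and 0.629 (0.392 to 1.01), below the genome-wide medians of 1.28 and 1.61 in both cases.

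On the opposite side of the Id2 centre regions went either way. The 2 given first here had higher folds in the myocyte lists. So did the regions at 15.4 kb and 1.08 kb from the centre, by smaller ratios that lay mostly below the genome-wide median. At 15.4 kb the fold ratio was 1.22 for the MyoD-null lists, above the median of 1.12. For the wild-type lists it was 1.06, below the median of 1.27. At 1.08 kb the folds of the MyoD-null lists were nearly equal, at 3.35 in myocytes and 3.34 in myoblasts. The wild-type lists gave a fold ratio of 1.25 there, just below their median. The region at chr12:25816797-25817308, 37.1 kb from the centre, had 47 summit reads in myocytes deposited as MyoD-null, 28 in those deposited as wild type, 25 in MyoD-null and 30 in wild-type myoblasts. The folds were 6.45, 4.61, 2.72 and 3.27. The MyoD-null lists gave a fold ratio of 2.37, which 125 of 72860 regions (0.172%) reached, and a ratio of summit reads over background of 2.53 (1.56 to 4.12). The wild-type lists gave 1.41 and 1.44 (0.863 to 2.42), not past the limit. The region at chr12:25804202-25804573, 24.4 kb from the centre, had folds of 4.91 in myocytes deposited as MyoD-null and 5.25 in those deposited as wild type. It was not listed in MyoD-null myoblasts and had 2.94 in wild-type myoblasts. Among the regions in fewer than 4 lists it is the 1 whose member peaks reach a fold of 5. On the same side, chr12:25828263-25828763 at 48.6 kb had folds of 3.51 in myocytes deposited as MyoD-null, 3.70 in MyoD-null and 4.88 in wild-type myoblasts, and was not listed in myocytes deposited as wild type. A weak region 22.8 kb from the centre was listed in wild-type myoblasts alone, with a fold of 3.16.

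The strongest Id2 region, chr12:25795012-25795871 at 15.4 kb from the centre, had folds of 8.58 in myocytes deposited as MyoD-null, 7.48 in those deposited as wild type, 7.03 in MyoD-null and 7.07 in wild-type myoblasts. These stood between the 82.5th and the 93.8th percentile of their lists. Its summit reads were 91, 46, 93 and 87, so the myocytes deposited as wild type had the fewest reads, over a local background equal to that of the genome. At the right edge of the window the rule divides 1 site. The summit of a peak with a fold of 2.86 in myocytes deposited as MyoD-null lay 7 bp inside. The overlapping peak of the myocytes deposited as wild type, with a fold of 6.68, had its summit 82 bp outside. It is no member and is left out of the strengths given here, although it counts as overlap.

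At Id3 the largest fold ratio in wild-type differentiation and between myoblasts was at 1 outer region. That region, at chr4:135666390-135666919, 33.4 kb from the centre, had 58 summit reads in myocytes deposited as MyoD-null, 67 in those deposited as wild type, 55 in MyoD-null myoblasts and 31 in wild-type myoblasts. The folds were 5.20, 8.88, 5.76 and 2.96, so the wild-type myoblasts stood below the other 3 lists. In myoblasts the fold was 1.95 times as high in MyoD-null as in wild-type cells, and 3 of 82889 regions had a ratio as high. The ratio of summit reads over background was 1.70 (1.09 to 2.64), which 79 regions reached. Between the myocyte lists the fold in those deposited as MyoD-null was 0.586 times that in those deposited as wild type. The ratio of summit reads over background was 0.722 (0.508 to 1.03) there, an interval that covers both 1 and the genome-wide median of 0.791. With genotypes read from the peak names, both stages had the higher fold in MyoD-null cells.

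With differentiation the same Id3 region had a fold ratio of 3.00 in the lists deposited as wild type, which 0.479% of regions reached. The ratio of summit reads over background was 3.34 (2.18 to 5.12). In the lists deposited as MyoD-null the fold ratio was 0.903 and the ratio of summit reads over background 1.42 (0.983 to 2.06). With the myocyte list whose peak names read WT, 5.20 stood against 2.96 in wild-type myoblasts, also higher. With the list whose peak names read MKO, 8.88 stood against 5.76 in MyoD-null myoblasts, so both genotypes were higher in myocytes by that reading. No genome-wide median was computed for those pairings. Whether either rise exceeds the higher myocyte folds over the genome therefore cannot be told.

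The region at chr4:135741196-135742041, 41.5 kb from the Id3 centre, had 125 summit reads in myocytes deposited as MyoD-null, 67 in those deposited as wild type, 79 in MyoD-null and 106 in wild-type myoblasts. Its folds of 7.61, 5.28, 5.56 and 6.28 put MyoD-null above wild type in the deposited myocyte lists and below it in myoblasts. The ratios of summit reads over background for MyoD-null over wild type were 1.56 (1.16 to 2.09) in myocytes as deposited and 0.714 (0.533 to 0.955) in myoblasts. With genotypes read from the peak names both stages had the lower value in MyoD-null cells. The strongest region in MyoD-null and wild-type myoblasts, chr4:135672790-135673531 at 26.8 kb from the centre, had folds of 7.22, 8.77, 7.21 and 6.50 in the usual order of lists, with no ratio past the limit.

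**Figure D3:**
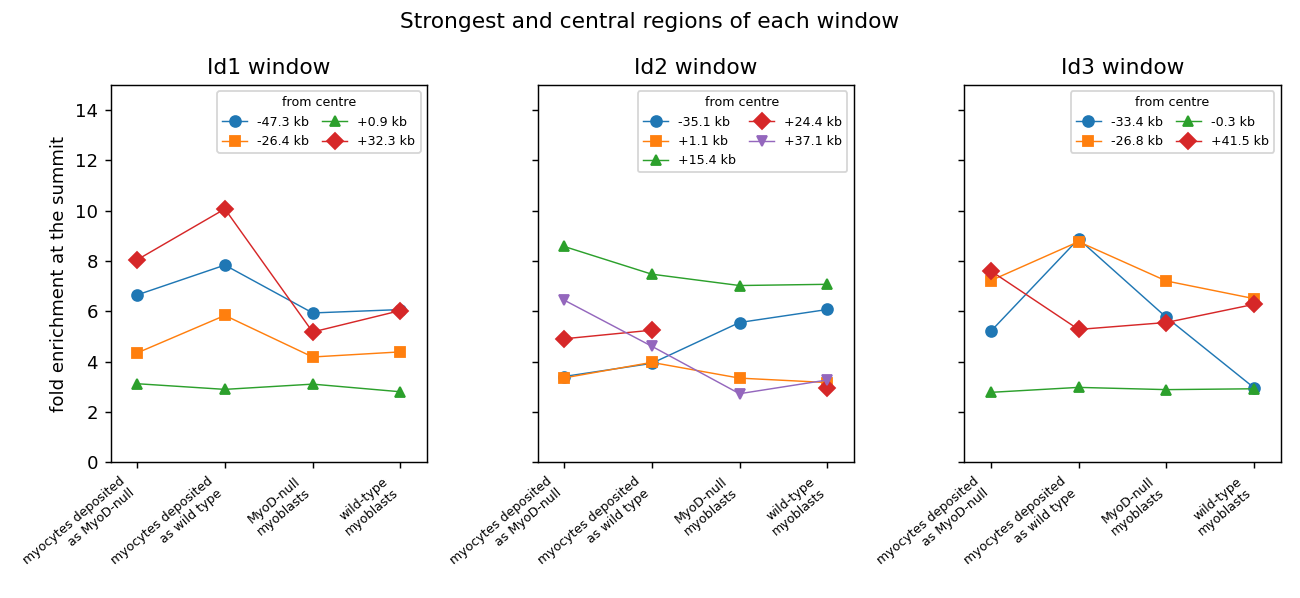
Lines join the deposited fold enrichment of 1 region over the 4 lists (horizontal axis), for the strongest and the central regions of each window and the partly listed Id2 region, named by kb from the window centre. The central regions stay between 2.78 and 3.97, and the Id3 region 33.4 kb before the centre spans 2.96 to 8.88.

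For differentiation of the cells deposited as wild type, 7 of 49 Id peaks (14.3%) in myocytes had no overlap in myoblasts, against 30% of all peaks in that list. Of 49 myoblast peaks 8 (16.3%) had none in myocytes, against 18%. Of 40 Id regions in both lists, 2 were higher past the limit, against 7.76% of all regions, and 3 were lower, against 4.74%. The higher ones were the Id3 region at 33.4 kb and chr4:135690204-135692228, 9.26 kb from the Id3 centre, with folds of 4.82 in myocytes and 2.48 in myoblasts. In that second region the summits of the 4 lists lay up to 1382 bp apart, and its ratio of summit reads over background, 1.55 (1.10 to 2.17), was close to the genome-wide median. The lower ones were the Id2 region at 35.1 kb, the Id1 region at 40.9 kb and the Id3 region at 41.5 kb. The median fold ratio over the 40 regions was 1.12, against 1.27 over the genome.

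For the lists deposited as MyoD-null, 5 of 43 Id peaks (11.6%) in myocytes had no overlap in myoblasts, against 16.2% of all peaks. Of 47 myoblast peaks 8 (17.0%) had none in myocytes, against 24.7%. Of 39 Id regions in both lists 1 was higher past the limit, the Id2 region at 37.1 kb, against 3.61% of all regions. Lower ones numbered 2, against 2.82%, which were the Id2 region at 35.1 kb and chr4:135715971-135716455 at Id3, with folds of 3.58 in myocytes and 4.99 in myoblasts. The median fold ratio was 1.05, against 1.12 over the genome. Among the differentiation comparisons the widest gap to the background was the 14.3% against 30% for wild-type myocytes as deposited. The other differentiation shares were also below the whole lists' shares, by less. For wild-type myoblasts the 2 shares were nearly equal, at 16.3% against 18%. The few regions past the limit lay on both sides.

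In myoblasts most Id peaks were listed in both genotypes. Of 47 MyoD-null peaks, 3 (6.38%) had no overlap in wild-type myoblasts, against 14.8% of all peaks, and 5 of 49 wild-type peaks (10.2%) had none in MyoD-null myoblasts, against 12.8%. None of these 8 peaks had a fold above 3.16. Of 43 Id regions in both lists 2 were higher past the limit in MyoD-null cells, against 0.345% of all regions, and 0 were lower, against 0.305%. Both lay at Id3, at 33.4 kb and at 9.26 kb, the region with separate summits, where the folds were 3.81 in MyoD-null and 2.48 in wild-type myoblasts. At that second region the ratio of summit reads over background was 1.10 (0.793 to 1.53), which is within counting error of 1. The median ratio over the 43 regions was 0.993, against 1.01 over the genome.

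Between the myocyte lists, 4 of 43 Id peaks (9.30%) deposited as MyoD-null had no overlap in those deposited as wild type, against 13.1% of all peaks, and 10 of 49 (20.4%) deposited as wild type had none in those deposited as MyoD-null, against 32%. Of 38 Id regions in both lists 2 were higher past the limit in those deposited as MyoD-null, against 5.21%, at 37.1 kb from Id2 and 41.5 kb from Id3. The 1 lower region, against 7.65%, was that at 33.4 kb from Id3. By peak names these directions belong to the opposite genotypes.

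The genotype ratios of myoblasts and myocytes, which share no list, were set beside each other at the regions in all 4 lists. Relative to the genome-wide medians, the ratios of MyoD-null over wild type as deposited lay on opposite sides in 14 of 17 Id3 regions and 4 of 6 Id2 regions, and on the same side in 10 of 13 Id1 regions. Over the genome 49.9% of 65178 regions lay on opposite sides. Read by peak names, the counts turn round, so that the regions on the same side number 14 of 17 at Id3 and 3 of 13 at Id1. Regions of 1 window share their neighbourhood and background and are not independent.

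**Figure D4:**
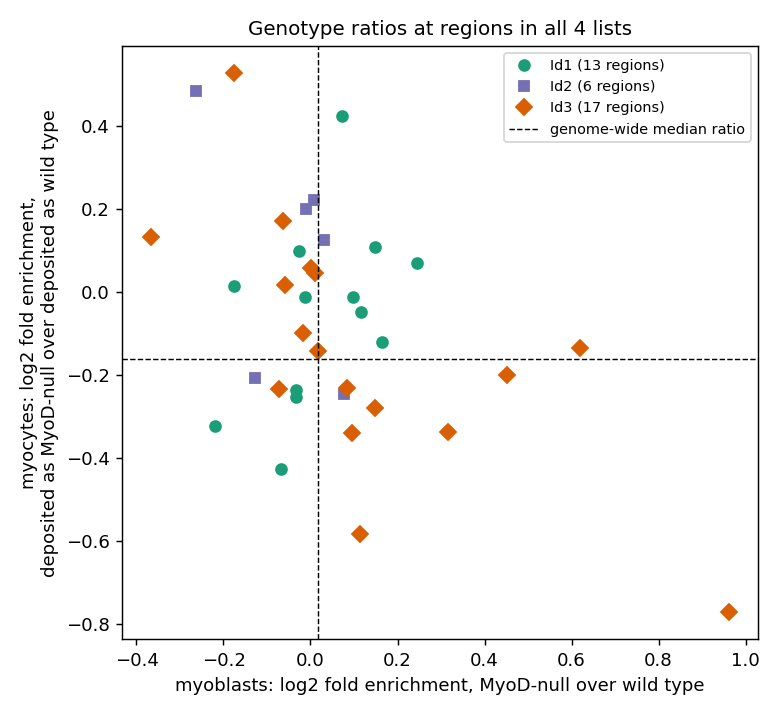
Points are the 36 Id regions in all 4 lists, with the log2 ratio of fold enrichment for MyoD-null over wild-type myoblasts on the horizontal axis and for myocytes deposited as MyoD-null over those deposited as wild type on the vertical axis. Dashed lines are the genome-wide median ratios, and the Id3 region at the lower right, 33.4 kb from the centre, has values of 0.96 and -0.77.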

How the data were processed

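Peaks were called with MACS2 on the mm9 build, per the submitters' processing notes, which also name deepTools. Peak names refer to merged files with a MAPQ30 tag. Aligner, read shifting and caller settings: not given in the sources used here. The deposited fold is a ratio of summit reads to local background, and each peak has a deposited −log10 p. The deposited score equals −log10 q times 10 without its decimals and stood in for q. Only chromosomes 1 to 19, X and Y entered. The deposited offset placed each summit.

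Reads at the summit and the local background were solved from the deposited fold and −log10 p, as (reads + 1) / (background + 1) and the Poisson probability of more reads. A whole number of reads gave the deposited −log10 p within 0.01 for 100% of peaks in each list. The lowest background of a list was taken as genome-wide. Read totals per sample are unknown. Where a region held several peaks of a list, the one with the highest fold was used. The solving and overlap steps were tested on simulated data.

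The windows, members and motifs were chosen with earlier results of these data known. Given in full, by rule, were the 3 regions of each window with the highest fold, the one nearest the centre and those in fewer than 4 lists with a fold of at least 5. Others named were past 1.5 times the median ratio or the most covered and were chosen after their values were seen. Alternatives were a stricter limit (−log10 q of at least 5), the 88233 strongest peaks of each list, a reciprocal overlap of 50%, genotypes from peak names, the central 50 kb, and summits within 250 bp. The scripts ran in Python 3.11.15 with pandas 2.3.3, numpy 2.4.6, matplotlib 3.10.9 and scipy 1.17.1.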

Additional observations from a re-analysis of the deposited data

Results flagged for a closer look

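Myocyte over myoblast log2 ratios of fold had opposite signs in the 2 genotypes as deposited in 13 of the 36 Id regions in all 4 lists, 4 at Id1, 2 at Id2 and 7 at Id3, against 29.1% of such regions over the genome. For summit reads over background it was 3 of 36, against 20.7%. Values follow for those of the regions named in the report. None of these differences was tested, since each group has 1 list. The Id3 region 33.4 kb from the centre had log2 fold ratios of -0.15 (deposited as MyoD-null) and 1.59 (deposited as wild type). The Id3 region at 41.5 kb had log2 fold ratios of 0.45 and -0.25, and log2 ratios of summit reads over background of 1.09 and -0.032, in the same order. The Id3 region at 16.2 kb had log2 fold ratios of -0.48 and 0.17, and log2 ratios of summit reads over background of -0.39 and 0.72, in that order too. With genotypes read from the peak names, folds at 33.4 kb were higher in myocytes of both genotypes and folds at 16.2 kb lower. Folds by that reading were not set against a genome-wide median. Those at 41.5 kb and at the Id3 centre still went opposite ways. The strongest Id2 region, at 15.4 kb, had log2 ratios of summit reads over background of 0.40 and -0.29, while its fold ratios were both above 1. The central Id3 region had log2 fold ratios of -0.055 and 0.027, both close to 0.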

How the results depend on the processing

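Of 56 values recomputed for 16 results under the alternatives, 33 stayed within 1.5 times the reported count or, for median fold ratios, within counting error. The other 23 moved further. Counts cannot change sign. Median fold ratios were recomputed only with summits within 250 bp, where none changed sign. They were not recomputed with genotypes from peak names. Counts of Id peaks without overlap are given as recomputed, then as reported. Shares over all peaks are given for the reported setting only. Whether the Id counts moved more than those of the whole lists therefore cannot be told. The same holds for whether the gap of 14.3% against 30% remains. With −log10 q of at least 5 they were 3 of 39 (5 of 43) for MyoD-null myocytes against MyoD-null myoblasts and 5 of 42 (8 of 47) for the reverse. For MyoD-null against wild-type myoblasts they were 1 of 42 (3 of 47). Lists of equal length gave 2 of 41 (7 of 49) for wild-type myocytes against wild-type myoblasts and 4 of 42 (8 of 47) for MyoD-null myoblasts against MyoD-null myocytes. They gave 1 of 42 (3 of 47) for MyoD-null against wild-type myoblasts and 3 of 41 (10 of 49) for wild-type against MyoD-null myocytes. A reciprocal overlap of 50% gave 5 (3) of 47 for MyoD-null against wild-type myoblasts and 8 (4) of 43 for MyoD-null against wild-type myocytes. Genotypes from peak names gave 3 of 43 (7 of 49) for wild-type myocytes against wild-type myoblasts and 8 of 49 (5 of 43) for MyoD-null myocytes against MyoD-null myoblasts. They gave 10 of 49 (4 of 43) for MyoD-null against wild-type myocytes and 4 of 43 (10 of 49) for the reverse. The central 50 kb, which hold fewer peaks by construction, had 22 peaks in MyoD-null myocytes, 28 in wild-type myocytes, 27 in MyoD-null and 29 in wild-type myoblasts. There the counts were 3 (7) for wild-type myocytes against wild-type myoblasts, 5 (8) for the reverse, 1 (5) for MyoD-null myocytes against MyoD-null myoblasts, 5 (8) for the reverse, 1 (4) for MyoD-null against wild-type myocytes and 6 (10) for the reverse. Otherwise the cause was not tested. Counts this small rest on single peaks. Peaks without a partner were not all thinly covered, with 87 reads over a local background of 46.3 at 1 Id2 region of wild-type myoblasts, and whether depth limits the missing ones was not tested. No paired analysis was possible because each list merges 3 samples, and no replicate could be left out for the same reason.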
